A study of Mus musculus with 22 samples.

Results

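Motor neurons of Plxnd1 knockout mouse embryos were compared with those of wild-type embryos. The comparison takes the 3 libraries labelled motor neurons, Plxnd1 knockout, and the 3 labelled motor neurons, wild type, out of 22 libraries in the series, and pairs them by the batch number in their labels (batch 1, 2 and 3). Per the labels, spinal cord with its surrounding meninges was dissected from embryos at E12.5 (an embryonic day), tissue was pooled by genotype, and cells that carried a farnesylated GFP reporter of the ISL1 gene were sorted after papain dissociation. Both groups carried that reporter, and the only named difference between them is the Plxnd1 allele. The labels do not say which Plxnd1 exons are missing, in which cells the gene was removed, or how many embryos entered a pool. The p-values of fits paired by batch measure the spread of the within-batch differences between pools, not the spread between embryos. All levels below are CPM, counts scaled to a common library size (with TMM, edgeR's scaling between libraries), and every fold change is knockout relative to wild type on the log2 scale.

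Plxnd1 encodes plexin-D1, a transmembrane receptor for class 3 semaphorins that is best known in blood vessels. Its ligand Sema3e can bind it directly, whereas other class 3 semaphorins signal to plexins through the co-receptors neuropilin 1 and neuropilin 2. Spinal motor neurons express the transcription factors Isl1 and Mnx1 and make acetylcholine with the enzyme encoded by Chat. Isl1 is not particular to them: dorsal spinal interneurons and sensory neurons of the dorsal root ganglia also express it.

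The 6 libraries held 21526707 to 27035395 counts each and 24401 to 27531 genes with at least 1 count. Isl1 stood at 186, 266 and 122 CPM in wild-type batches 1, 2 and 3 and at 259.9, 281 and 126 CPM in the knockout libraries of the same batches. Mnx1 stood at 70.2, 130.4 and 43.5 CPM in wild type, against 100.4, 138 and 41.4 CPM in knockout. Chat stood at 31.9, 51.3 and 19.6 CPM in wild type, against 52.5, 70.1 and 21.5 CPM in knockout. The 3 defining genes were present in every library, and they differed more between batches than within a batch: batch 2 was highest and batch 3 lowest in both genotypes.

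Genes of other cells were also present. The 28 listed interneuron and progenitor genes summed to 2422, 2129 and 2647 CPM in wild type, against 2210, 1793 and 2538 CPM in knockout. The 14 listed motor neuron markers summed to 1436, 2147 and 979 CPM in wild type, against 1954, 2507 and 1006 CPM in knockout. The interneuron sum was lower and the motor neuron sum higher in the knockout library of each batch, and the motor neuron excess was largest in batch 1. In bulk samples of this kind, fewer cells of a type and less RNA per cell cannot be told apart. Endothelial markers (20 genes) summed to 54.8, 32.1 and 39.6 CPM in wild type, against 46.8, 27.2 and 64.9 CPM in knockout, so knockout batch 3 held the most. Schwann cell and neural crest genes (11 genes) ranged from 393 to 726 CPM and meningeal and mesenchymal genes from 365 to 552 CPM, with overlap between the genotypes.

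**Figure D1:**
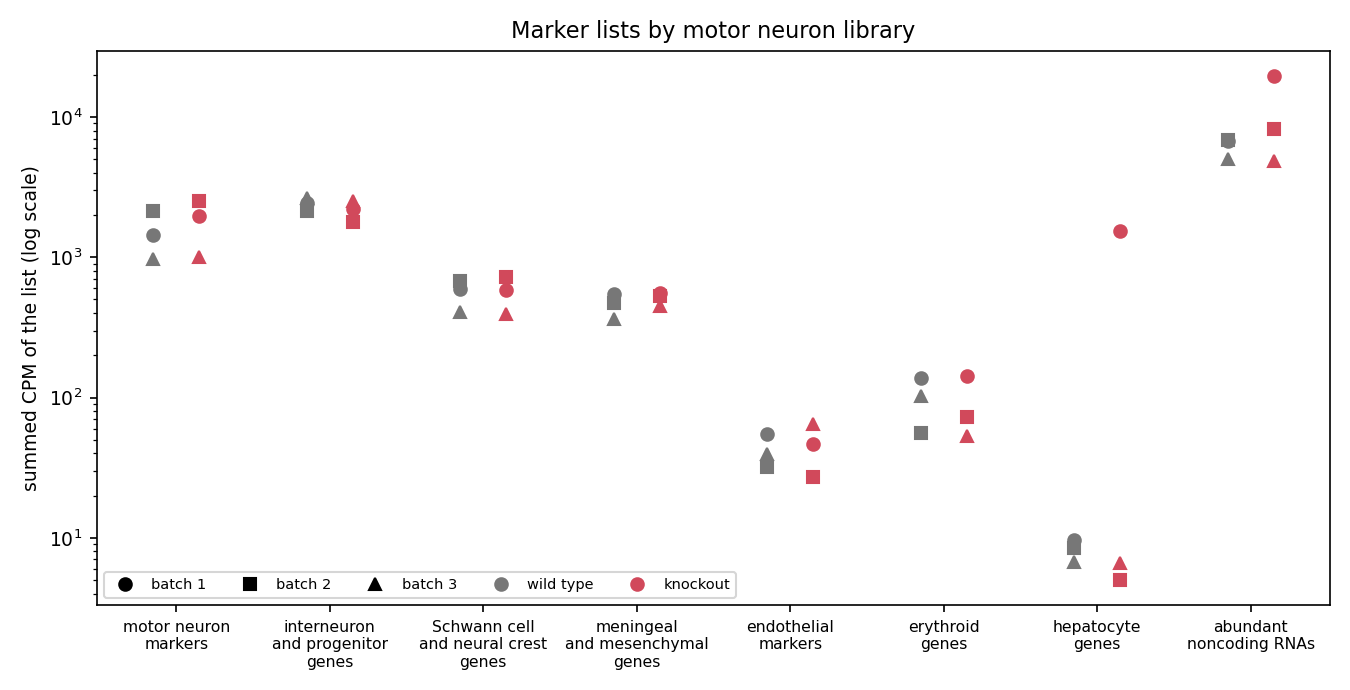
Summed CPM of 8 marker lists (log axis) in each of the 6 motor neuron libraries, grey for wild type and red for knockout, with the batch as the symbol. The hepatocyte list reaches 1547 CPM in knockout batch 1 and stays under 10 CPM in the other 5 libraries.

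The library labelled knockout, batch 1, stood apart from the rest. Its hepatocyte genes summed to 1547 CPM, against 4.99 to 9.65 CPM in the other 5 libraries. Albumin (Alb), the main plasma protein made by liver, stood at 454 CPM there and at no more than 0.477 CPM elsewhere. Apob, the apolipoprotein of liver-derived lipoproteins, stood at 170.5 CPM there and at no more than 0.149 CPM elsewhere. In that library 48 genes had at least 20 CPM and at least 10 times the highest level of the other 5, and together they made up 1.99% of its counts. Most of that sum came from 5 genes: Mir6236 stood at 4744 CPM, mt-Rnr2 at 4413, Lars2 at 3461, mt-Rnr1 at 2855 and Gm42418 at 1128 CPM, and 17 of the 48 genes were in the hepatocyte list. Results are therefore given over all 6 libraries and again without knockout batch 1. Wild-type batch 1 then has no partner and adds nothing to a difference paired by batch, so the 5-library values rest on batches 2 and 3.

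The libraries also differed in sex-linked genes. Xist, the noncoding RNA that silences an X chromosome in female cells, stood at 1773, 3.22 and 0.77 CPM in wild type, against 1743, 0.312 and 839 CPM in knockout. The Y-linked gene Ddx3y stood at 0.119, 55.2 and 39.0 CPM in wild type, against 1.58, 45.8 and 20.99 CPM in knockout. Both libraries of batch 1 were thus high in Xist and low in Y-linked RNA, both of batch 2 the reverse, and in batch 3 the knockout pool alone held both kinds.

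The targeted gene fell in every batch. Plxnd1 (chr6:115954811-115995005, minus strand, GRCm38) stood at 11.8, 4.99 and 7.54 CPM in wild-type batches 1, 2 and 3 and at 1.74, 0.623 and 0.747 CPM in the knockout libraries. The groups did not overlap. The change over 6 libraries was -2.998 (SE 0.20, edgeR adjusted p = 0.000135), and without knockout batch 1 it was -3.17 (SE 0.28, edgeR adjusted p = 5.28e-26). In reads, 589 fell on the gene in wild type and 79 in knockout, and the scaled ratio was 8.08 (95% interval 6.38 to 10.4, counting error only). The remaining reads were not placed on exons here. The plot of levels by batch shows the gene beside the markers and 4 of the genes described below.

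**Figure D2:**
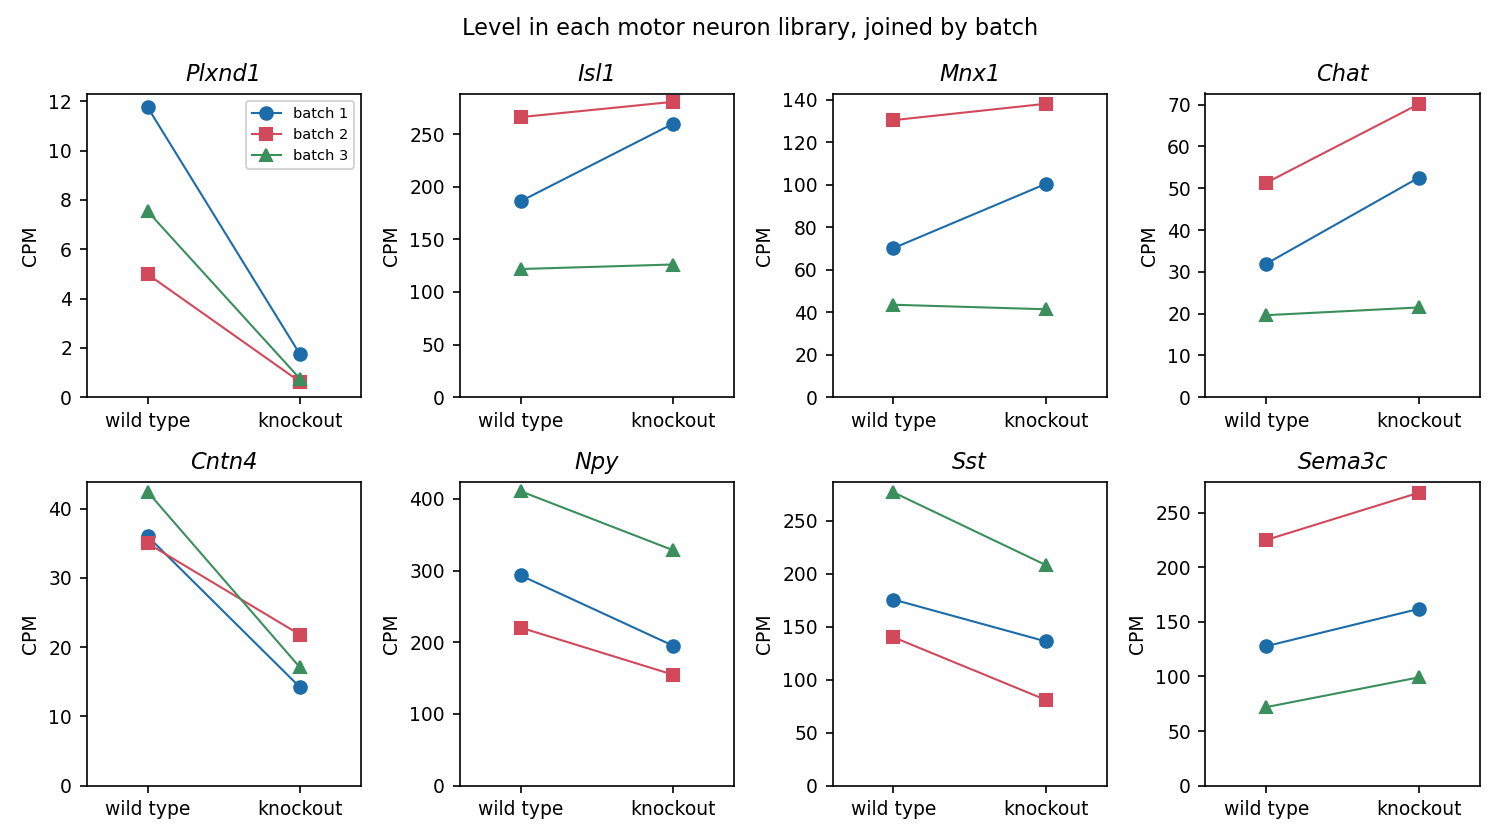
CPM (linear axis from 0) of 8 genes in wild-type and knockout motor neurons, with 1 line per batch. Plxnd1 and Cntn4 fall in each batch without overlap of the groups, while Isl1, Mnx1 and Chat are spread more by batch than by genotype.

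Over the 6 libraries few genes besides Plxnd1 passed the test. Of 16695 genes tested with the batch as a block, 6 were called (0.0359%), 2 higher (0.012%) and 4 lower (0.024%), at an adjusted p under 0.05 in edgeR's quasi-likelihood test. An unadjusted p under 0.05 was reached by 968 genes, where 835 would be reached by chance alone. Levels of every knockout library lay above every wild-type library for 396 genes (2.37%) and below for 417 genes (2.5%). The median change over all genes tested was 0.00. The 4 lower genes were Plxnd1, Cntn4, Gm13394 and Gm5514, and each remained called when any 1 of the 6 libraries was left out. Without the batch block edgeR called Gm13394 and Gm5514 and no other gene, and the adjusted p of both Plxnd1 and Cntn4 was 0.80. The 2 higher genes were Alb and the small noncoding RNA Rn7sk, at 157 CPM in knockout batch 1 and at no more than 0.56 CPM elsewhere. Both rested on that library alone, and without it their changes were -0.43 and 0.60, neither called.

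Cntn4 encodes contactin 4, a cell adhesion protein of axons. It lies on the same chromosome as Plxnd1, at chr6:105677745-106699310, 9.26 Mb away. Its levels were 36.0, 35.0 and 42.5 CPM in wild type, against 14.2, 21.8 and 17.1 CPM in knockout, with no overlap. It fell by 1.11 over 6 libraries (SE 0.12, edgeR adjusted p = 0.0112) and by 0.997 without knockout batch 1 (SE 0.12, edgeR adjusted p = 1.12e-13). The long noncoding gene Gm15631 lies next to it on the opposite strand. Its levels were 3.10, 4.102 and 6.93 CPM in wild type, against 1.17, 2.22 and 1.38 CPM in knockout, again with no overlap. Its change over 6 libraries was -1.54 (edgeR adjusted p = 0.137), and it fell by 1.596 without knockout batch 1 (edgeR adjusted p = 1.24e-06). The counts were made without regard to strand, so reads of overlapping or antisense genes cannot be told apart.

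The other pair of lower genes are processed pseudogenes, intronless copies of a messenger RNA that were inserted elsewhere in the genome, each a near-identical copy of a glycolytic enzyme gene of chromosome 6. Gm13394 (chr2:28933610-28934609, minus strand) matches Gapdh (chr6:125161853-125166467, minus strand) at 99.9% over 1000 bases, with 1 difference, A438C, counted from base 1 of the Gapdh transcript. Gm5514 (chr19:21937380-21938381, plus strand) matches Ldhb (chr6:142490249-142507957, minus strand) at 98.0% over 1002 bases, with 20 differences. The stretches below, from the GENCODE M21 transcripts (GRCm38), are shown because a short read is assigned to gene or copy only by such differences, which are in capitals. They are bases 408 to 467 of Gapdh against bases 316 to 375 of Gm13394, and bases 958 to 1017 of Ldhb against bases 847 to 906 of Gm5514.
Gapdh: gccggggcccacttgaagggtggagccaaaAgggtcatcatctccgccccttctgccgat
Gm13394: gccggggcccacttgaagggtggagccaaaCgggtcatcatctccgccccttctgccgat
Ldhb: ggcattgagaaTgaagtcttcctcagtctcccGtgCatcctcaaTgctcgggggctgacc
Gm5514: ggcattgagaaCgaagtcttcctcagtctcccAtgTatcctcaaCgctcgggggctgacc
The 4 differences between the latter pair are T969C, G990A, C993T and T1002C, counted from base 1 of the Ldhb transcript.

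Gm13394 stood at 6.52, 12.2 and 24.6 CPM in wild type, against 0.0404, 0.0389 and 0.0373 CPM in knockout. That is 164, 261 and 606 counts against 1 count in each knockout library, a scaled ratio of 372 with a 95% counting interval of 127 to 1808 (edgeR adjusted p = 3.95e-07 over 6 libraries). Gapdh, the glyceraldehyde-3-phosphate dehydrogenase gene, stood at 20.9, 26.5 and 17.1 CPM in wild type, against 29.4, 33.8 and 32.7 CPM in knockout. Gapdh rose by 0.64 in the 5-library fit (edgeR adjusted p = 0.000106), while over 6 libraries the edgeR adjusted p was 0.191. Summed, the gene and its copy gave 27.4, 38.6 and 41.6 CPM in wild type, against 29.5, 33.8 and 32.7 CPM in knockout, which overlap.

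Gm5514 stood at 4.61, 4.34 and 5.35 CPM in wild type, against 0.565, 0.467 and 0.598 CPM in knockout, and it fell by 3.12 over 6 libraries (SE 0.23, edgeR adjusted p = 0.000315). The scaled ratio of its reads was 8.79 (95% counting interval 6.37 to 12.4). Ldhb, a lactate dehydrogenase subunit gene, stood at 148, 145 and 172 CPM in wild type, against 137, 138 and 162 CPM in knockout (change -0.09, edgeR adjusted p = 0.927). The sum of gene and copy, 152, 149 and 178 CPM against 138, 139 and 162 CPM, overlapped between the groups. Ldhb makes up most of that sum and overlapped on its own, so the sum cannot show whether reads moved between gene and copy.

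DESeq2 called more genes from the same 6 libraries, 15 higher and 17 lower, and edgeR's 4 lower genes were among them. All 15 lay above wild type and all 17 below it in each of the 3 batches, the same pairs that gave the calls. Of all genes tested over 6 libraries, 13.6% were higher and 11.6% lower in all 3 batches. At an unadjusted p under 0.05 DESeq2 had 434 of 16695 genes, where 835 would be reached by chance alone. Among the higher genes were Sema3c, Kitl, Vegfa, Ldha, Gapdh, Pappa, Cacna1e and Slc18a3, and among the lower genes Npy, Sst, Zic1, Zic4, Lamp5, Postn, Sall3 and Gbx1. The lowest DESeq2 adjusted p among those was that of Npy (3.52e-07, change -0.47), for which edgeR gave 0.0677. The changes of the 15 higher genes ran from 0.28 to 1.59. Of the 32, 17 were also called by edgeR in the 5-library fit. Leaving out batch 3 moved the 6-library edgeR counts by far more than 1.5 times: without knockout batch 3 there were 116 higher and 48 lower genes, and without wild-type batch 3 there were 146 and 58. Chat, Slc18a3 (the vesicular acetylcholine transporter) and Ret were called higher in both of these fits, with changes of 0.58, 0.39 and 0.38, beside the motor neuron marker sums of batches 1 and 2 given above. Whether the share of motor neurons plays a part was not tested.

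Without knockout batch 1, 17010 genes were tested and edgeR called 58 higher (0.341%) and 46 lower (0.27%). At an unadjusted p under 0.05 there were 840 genes, where 850 would be reached by chance alone, so there was no excess at that threshold. The called genes lie at much lower p-values, which that count does not describe. These counts depend on the fit. DESeq2 called 7 higher and 6 lower from the same 5 libraries, all 13 among edgeR's, namely Plxnd1, Cntn4, Gm13394, Gm5514, Sst, Eif2s3y, Kitl, H2-D1, Stmn3, Dnajc5, Lime1, Zgpat and Zbtb46. With the endothelial libraries in the same fit, Plxnd1, Gm13394 and Gm5514 alone were called. The 5-library edgeR fit has 1 residual degree of freedom, and its estimate gave all genes of a given level the same spread. Its p-values thus do not reflect the spread of the single gene. Of the 104 genes, 95 had the same sign in batches 2 and 3. The calls were made from those batches, so that agreement is no separate support. In all 3 batches 63 had the same sign, where 13.6% of all genes tested over 6 libraries were higher and 11.6% lower. Groups did not overlap for 24, where knockout lay wholly above wild type for 2.37% of all genes and wholly below for 2.5%. Those shares are of genes not selected on batches 2 and 3, so they are no like baseline for the 104. In batch 1 alone, 58.6% of the higher genes were higher, against 53.05% of all genes with a fitted change above 0. Of the lower genes 67.4% were lower there, against 53.35% of all genes with a fitted change below 0. Of the 104, 27 changed over 2-fold and 80 were protein coding. The groups of genes below are from this fit unless stated otherwise, and the plot of within-batch differences shows most of them.

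**Figure D3:**
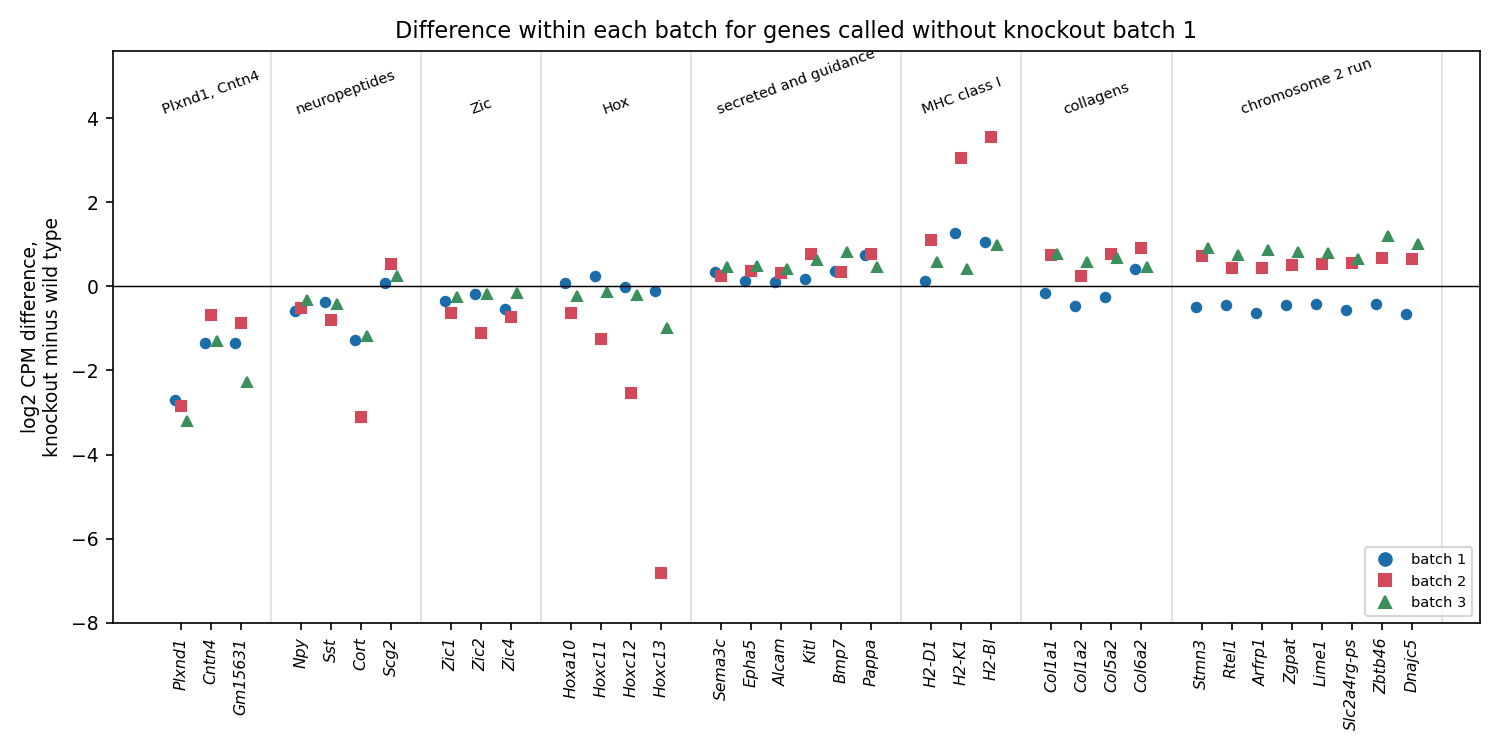
Difference of log2 CPM between knockout and wild type within each batch, for Plxnd1 and groups of genes called without knockout batch 1 (1 point per batch). The neuropeptides Npy and Sst and the 3 Zic genes plotted lie below 0 in all 3 batches, and the chromosome 2 genes lie above 0 in batches 2 and 3 and below 0 in batch 1.

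Batch 1 took no part in the calls made from batches 2 and 3 alone, so it offers a pair not used. Of the 54 genes higher in those 4 libraries (0.324% of 16688 tested), 30 were also higher in knockout batch 1 than in wild-type batch 1 (55.6%), against 53.7% of all genes whose fitted change was above 0. Their median difference in batch 1 was 0.09, where the fitted median was 0.66. Of the 45 lower genes (0.27%), 31 were lower in batch 1 (68.9%, against 53.04% of all genes with a fitted change below 0), with a median of -0.25 where the fitted median was -0.68. Without Xist and the Y-linked genes the shares were 56.6% and 77.5%. The share of the higher genes was thus near that of all genes, and that of the lower genes was above it.

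Neuropeptide genes were among those lower in all 3 batches. Npy encodes neuropeptide Y, a transmitter of inhibitory interneurons and sympathetic neurons. It stood at 293, 221 and 411 CPM in wild type, against 195, 155 and 329 CPM in knockout, and it fell by 0.41 (SE 0.10, edgeR adjusted p = 0.00438). Sst encodes somatostatin, a peptide of dorsal interneurons. It stood at 176, 140 and 277 CPM in wild type, against 136, 80.9 and 208 CPM in knockout, and it fell by 0.59 (edgeR adjusted p = 3.01e-07). For both genes each knockout library lay below its batch partner, while the groups overlapped. Cort, which encodes the related peptide cortistatin, fell by 2.07 (edgeR adjusted p = 1.67e-05) from 3.42, 2.61 and 2.47 CPM to 1.37, 0.234 and 1.05 CPM, with no overlap. Scg2, a granin of secretory vesicles, rose by 0.39 (edgeR adjusted p = 0.0162). Sst and Scg2 were the 2 genes called of 15 listed cholinergic and neuropeptide genes, whose median was 0.19.

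Zic1, Zic2, Zic4 and Zic5, which encode zinc finger transcription factors of the dorsal neural tube, were lower in all 3 batches, as were 11.6% of all genes tested over 6 libraries, and 3 of these 4 fell. Zic1 stood at 513, 435 and 710.5 CPM in wild type, against 403, 278 and 597.5 CPM in knockout. Each knockout library lay below its partner, and the change was -0.44 (SE 0.10, edgeR adjusted p = 0.00162). Zic2 fell by 0.62 (edgeR adjusted p = 1.46e-05) and Zic4 by 0.43 (edgeR adjusted p = 0.00598). Zic5 changed by -0.62 (edgeR adjusted p = 0.192). The median of the 4 was -0.53, beside 0.01 for all genes, and by batch it was -0.44, -0.92 and -0.18. The list was made after its values were seen. Among the 28 listed interneuron and progenitor genes 1 rose (En1, of ventral interneurons) and none fell. En1 was lower in batch 1 (-0.43), and its groups overlapped. The median of the 28 genes was 0.00 in this fit and -0.09 over 6 libraries, beside the lower summed level in each batch given above. The difference from the Zic genes was not tested.

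Posterior Hox genes, which set position along the trunk and limb axis, were lower in batch 2 above all. Of 11 tested genes of groups 10 to 13, 4 fell (Hoxa10, Hoxc11, Hoxc12 and Hoxc13), and their medians by batch were 0.08, -0.86 and -0.23. Hoxc13 stood at 8.14, 8.996 and 9.93 CPM in wild type, against 7.55, 0 and 4.93 CPM in knockout. Hoxc12 stood at 11.8, 14.4 and 11.2 CPM in wild type, against 11.6, 2.41 and 9.64 CPM in knockout. The low values are those of knockout batch 2, while batch 1 hardly differed. Of 27 tested Hox genes of groups 1 to 9 edgeR called none (8 at an unadjusted p under 0.05, 0 called by DESeq2), with a median of -0.07. DESeq2 called Hoxb8 lower over 6 libraries. How far along the cord each dissection reached is not given, and its part in the result was not tested.

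Among semaphorin pathway genes besides Plxnd1, 1 of 18 rose. Sema3c, a secreted class 3 semaphorin, stood at 128, 225 and 72.0 CPM in wild type, against 162, 268 and 99.2 CPM in knockout. Each knockout library lay above its partner, and the change was 0.36 (SE 0.10, edgeR adjusted p = 0.0346), against an edgeR adjusted p of 0.132 and a DESeq2 adjusted p of 0.00518 over 6 libraries. The direct ligand gene Sema3e stood at 4.61, 5.78 and 5.72 CPM in wild type, against 5.41, 8.53 and 7.58 CPM in knockout (change 0.48, edgeR adjusted p = 0.697). The co-receptor genes Nrp1 and Nrp2 had changes of 0.11 and 0.27 (edgeR adjusted p = 1 and 0.352). The median of the list was 0.11.

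Other guidance, adhesion and secreted signal genes rose one at a time. Epha5, an ephrin receptor, rose by 0.43 (edgeR adjusted p = 0.00276), from 74.6, 92.7 and 66.1 CPM to 81.5, 119.8 and 92.9 CPM. It was the 1 member of 35 other guidance genes to pass. Alcam, an adhesion protein of motor axons, rose by 0.37 (edgeR adjusted p = 0.0346), while Cntn4 was the member of the same 48-gene adhesion list that fell. Kitl, the ligand of the receptor Kit, stood at 60.5, 53.2 and 34.4 CPM in wild type, against 68.0, 90.9 and 52.8 CPM in knockout, and it rose by 0.70 (SE 0.10, edgeR adjusted p = 7.79e-09). Bmp7, a bone morphogenetic protein, rose by 0.57 (edgeR adjusted p = 0.0108) and Pappa, a protease that frees insulin-like growth factors, by 0.64 (edgeR adjusted p = 0.0166). All of these were higher in each of the 3 batches.

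Vegfa, the main growth factor for blood vessels, stood at 101, 117 and 97.0 CPM in wild type, against 152, 137 and 120.4 CPM in knockout. The groups did not overlap, but the change without knockout batch 1 was 0.27 (edgeR adjusted p = 0.345). Over 6 libraries the change was 0.37, with an edgeR adjusted p of 0.194 and a DESeq2 adjusted p of 0.0142. Of the 21 listed vessel-directed signals Sema3c was the 1 that rose, with a list median of 0.18.

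The motor neuron programme itself showed few calls. None of the 14 motor neuron markers passed in either edgeR fit. At an unadjusted p under 0.05 there were 9 over 6 libraries and 5 without knockout batch 1, and DESeq2 called 1 over 6 libraries (Slc18a3) and 0 without knockout batch 1. Of the 14, 8 were higher in all 3 batches, as were 13.6% of all genes tested, and their medians by batch were 0.47, 0.09 and 0.05. Their fitted change was above 0 for all 14 over 6 libraries (median 0.19) and for 11 without knockout batch 1 (median 0.13). Over all genes tested the medians of these fits were 0.00 and 0.01. Of 29 column and pool factors 2 rose: Nos1, the neuronal nitric oxide synthase gene that marks preganglionic neurons, by 0.54 (edgeR adjusted p = 0.000427), and Pou4f1, a factor of sensory neurons and dorsal interneurons, by 0.48 (edgeR adjusted p = 0.0115). Nos1 was higher in all 3 batches, whereas Pou4f1 was lower in batch 1 (-0.65). The channel gene Cacna1e, a voltage-gated calcium channel subunit, rose by 0.39 (edgeR adjusted p = 0.0151), 1 of 23 listed channel genes. The pro-apoptotic gene Hrk rose by 0.40 (edgeR adjusted p = 0.0133), 1 of 13 listed apoptosis and p53 target genes. In edgeR's 5-library fit no member passed among 23 synaptic vesicle genes, 19 trophic factor genes, 24 proliferation genes, 21 immediate early and stress genes or 7 mitochondrially encoded genes. At an unadjusted p under 0.05 there were 1, 3, 0, 3 and 0 of them, and DESeq2 called 0.

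Schwann cell and neural crest genes had a median of -0.39 over 6 libraries and -0.31 without knockout batch 1, and by batch -0.69, -0.31 and -0.05. None of the 11 passed in either edgeR fit (7 at an unadjusted p under 0.05 over 6 libraries and 4 without knockout batch 1). DESeq2 called 0 without knockout batch 1 and 2 lower over 6 libraries: Ednrb, the endothelin receptor of neural crest cells, and Fabp7, a fatty acid binding protein of glia and progenitors that the interneuron and progenitor list also holds. Endothelial markers, which knockout batch 3 held most of, had medians of -0.32, -0.29 and 0.76 by batch, and none of 20 passed in edgeR without knockout batch 1 (3 at an unadjusted p under 0.05, 0 called by DESeq2).

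The proliferation list differed between batches: 23 of its 24 members were lower in knockout batch 1 than in wild-type batch 1 (median -0.57), and 19 were higher in batch 3 (median 0.14). Of 24 glycolysis and hypoxia genes 1 rose, the enolase gene Eno1, by 0.41 (edgeR adjusted p = 0.025), from 40.9, 37.7 and 43.1 CPM to 60.4, 61.6 and 46.6 CPM with no overlap. Ldha, the other lactate dehydrogenase subunit gene, changed by 0.34 (edgeR adjusted p = 0.0758) and was higher in all 3 batches.

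Genes of the major histocompatibility complex on chromosome 17, whose class I proteins display peptides at the cell surface, were among those that rose. H2-D1 stood at 47.3, 30.3 and 36.3 CPM in wild type, against 51.5, 65.0 and 54.0 CPM in knockout, and it rose by 0.84 (SE 0.11, edgeR adjusted p = 8.23e-12). H2-K1 stood at 6.16, 1.03 and 6.28 CPM in wild type, against 14.98, 9.07 and 8.44 CPM in knockout, and it rose by 1.49 (edgeR adjusted p = 3.3e-08). Neither gene overlapped between the groups, and their sum did not either. H2-Bl rose by 2.19 (edgeR adjusted p = 0.0258) from levels under 1 CPM. These 3 were the members called of 15 tested H2 genes, whose median was 0.08, in a list made after its values were seen. By batch, H2-D1 differed by 0.12, 1.10 and 0.57 and H2-K1 by 1.27, 3.05 and 0.42. H2-Bl differed by 1.055, 3.54 and 0.99. All 3 differed most in batch 2, where wild type was lowest. In endothelial cells H2-D1, H2-K1 and H2-Bl changed by 0.16, -0.01 and -0.29, and none was called. B2m, the partner chain of class I proteins, stood at 6.60, 2.52 and 2.51 CPM in wild type, against 18.1, 3.89 and 5.08 CPM in knockout. It was not called in the 5-library fit (edgeR adjusted p = 0.116) and was called higher by DESeq2 over 6 libraries (adjusted p = 0.0233).

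Of 14 fibrillar and microfibrillar collagen genes, which build connective tissue matrix, 4 rose (Col1a1, Col1a2, Col5a2 and Col6a2) and 10 did not pass. The list was made after its values were seen. Col6a2 was higher in all 3 batches, and the other three were higher in batches 2 and 3 and lower in batch 1. Col1a1 stood at 47.7, 13.4 and 21.5 CPM in wild type, against 42.5, 22.4 and 36.9 CPM in knockout, so the groups overlapped and wild-type batch 1 was highest. The medians of the 14 by batch were -0.16, 0.33 and 0.37. The summed meningeal and mesenchymal genes moved in the same direction in batches 2 and 3, from 469 to 534 CPM and from 365 to 449 CPM, and their part in the result was not tested. Postn, a matrix protein of mesenchyme and nerve sheath cells, went the other way. It fell by 0.53 (edgeR adjusted p = 0.021) and was lower in all 3 batches.

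A run of neighbouring genes on chromosome 2 rose together. Between positions 181306459 and 181555133 (0.249 Mb), 8 of 10 tested genes were called higher: Stmn3, a stathmin that binds tubulin in growing axons, the helicase gene Rtel1, Arfrp1, Zgpat, Lime1, Slc2a4rg-ps, the zinc finger gene Zbtb46 and Dnajc5, which encodes a chaperone of synaptic vesicles. Stmn3 stood at 495, 287 and 249 CPM in wild type, against 352, 472 and 472 CPM in knockout (change 0.82, edgeR adjusted p = 3.92e-14). Dnajc5 stood at 373, 185 and 193.5 CPM in wild type, against 235, 292 and 386 CPM in knockout (change 0.83, edgeR adjusted p = 9.54e-15). In batch 1 both genes were lower in knockout, and so were the other 6: the differences of the 8 genes ran from -0.66 to -0.42 in batch 1, from 0.43 to 0.72 in batch 2 and from 0.64 to 1.19 in batch 3. Over 6 libraries neither Stmn3 nor Dnajc5 was called (edgeR adjusted p = 0.888 and 0.955).

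Endothelial cells of the same batch numbers showed the same signs at these genes. There the median difference of the 8 genes was -0.54 in batch 1 and 0.75 in batch 3. Summed, they gave 1346, 702 and 671 CPM in wild-type motor neurons and 933, 1094 and 1268 CPM in knockout motor neurons, so wild-type batch 1 was the highest of all 6. Among 35 genes tested within 500 kb of Stmn3, 26 were not called, with medians of -0.03, -0.06 and -0.07 in the 3 motor neuron batches. Helz2, just before the run, went the other way (1.14, -0.60 and -1.07 by batch, edgeR adjusted p = 0.035). Tpd52l2, inside it, stood between 44.8 and 54.4 CPM in all 6 libraries.

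**Figure D4:**
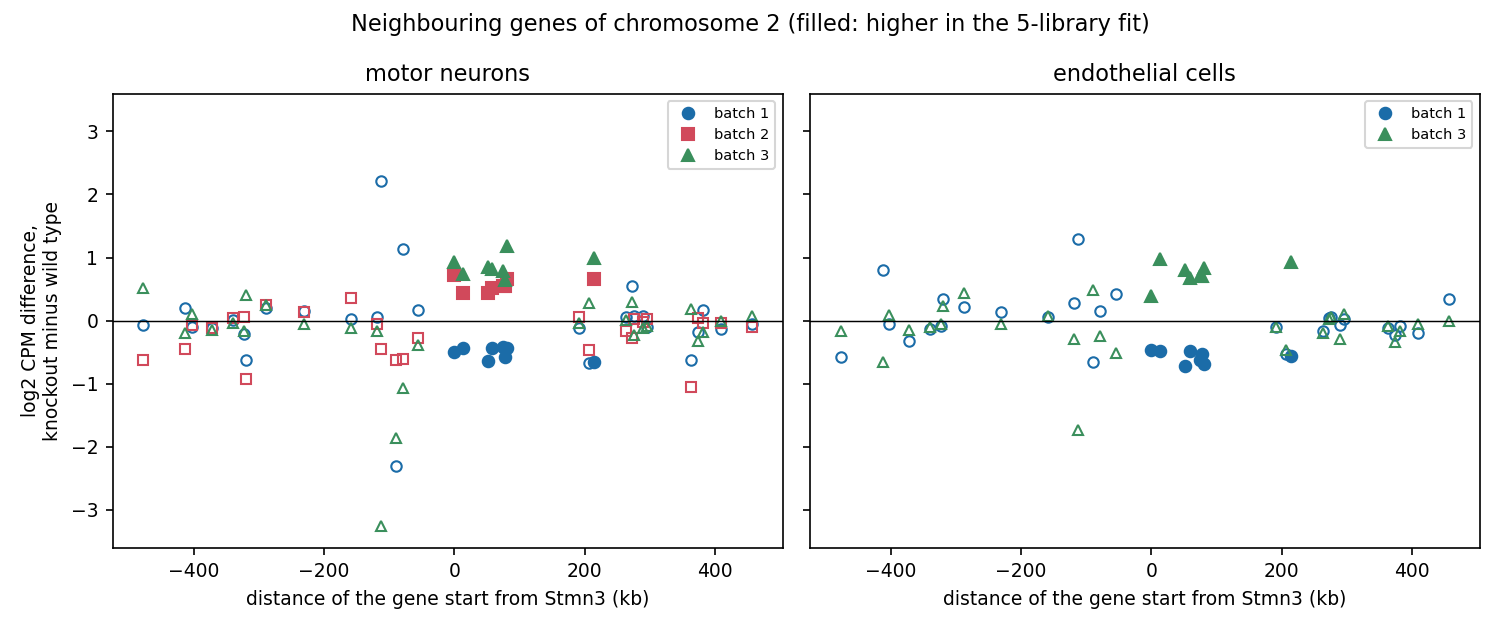
Difference of log2 CPM between knockout and wild type for genes within 500 kb of Stmn3 on chromosome 2, against the distance of their start from that of Stmn3, in motor neurons (left) and endothelial cells (right, batches 1 and 3). Filled points are the 8 genes called higher in motor neurons, which lie below 0 in batch 1 and above 0 in batches 2 and 3.

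Of the 104 genes called without knockout batch 1, 19 had a near-identical copy elsewhere in the genome (at least 95% identity over 200 bases or more and 50% of the transcript). Genes that were not called were not searched, so the share among all genes is not known. For a gene with such a copy, a change can come from how reads were split between the copies, which was not tested. Of the 20 called in either fit, 16 had overlapping groups once the CPM of gene and copies were summed. Of the 9 that did not overlap alone, 5 did so after summing: Gapdh, Gm13394, Gm10263, Gm5514 and Tuba1c. Gapdh and Gm13394 are copies of each other. For Gm5514 and Tuba1c the copies make up most of the sum, so its overlap cannot show how reads were split. Tuba1c, an alpha-tubulin gene, stood at 1.67, 32.1 and 1.14 CPM in wild type, against 41.8, 39.8 and 40.7 CPM in knockout (edgeR adjusted p = 2.44e-37). Its coding sequence differs from that of Tuba1b at 8 of 1307 bases, and the sum with its 9 copies differed by -0.05, 0.15 and 0.10 in the 3 batches. That sum lay between 1207 and 1460 CPM, so a change in Tuba1c could hardly show in it. Gm9825, a copy of Rnps1, stood at 16.3, 0.606 and 18.9 CPM in wild type, against 11.4, 13.1 and 11.95 CPM in knockout, while Rnps1 stood at 48.9, 75.2 and 49.4 CPM and at 57.6, 59.3 and 58.4 CPM. In wild-type batch 2 the copy was thus lowest and the parent highest.

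The same opposite movement appeared for other pairs. Tpm3-rs7, a copy of the tropomyosin gene Tpm3, stood at 16.1, 1.352 and 12.2 CPM in wild type, against 23.3, 0.935 and 1.05 CPM in knockout. Tpm3 was high where the copy was low, at 81.9 CPM in wild-type batch 2 and at 75.1 and 75.3 CPM in knockout batches 2 and 3, and lower in the other 3 libraries, at 52.2 CPM in knockout batch 1. Atp6v0c-ps2 and Hmga1b were low in wild-type batch 2 alone (0.326 and 0.606 CPM, against at least 9.78 and 5.61 CPM elsewhere), where their parents Atp6v0c and Hmga1 were highest. The sum of Eno1 and its copies still did not overlap, at 47.8, 47.3 and 48.0 CPM in wild type, against 65.1, 69.2 and 52.4 CPM in knockout.

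**Figure D5:**
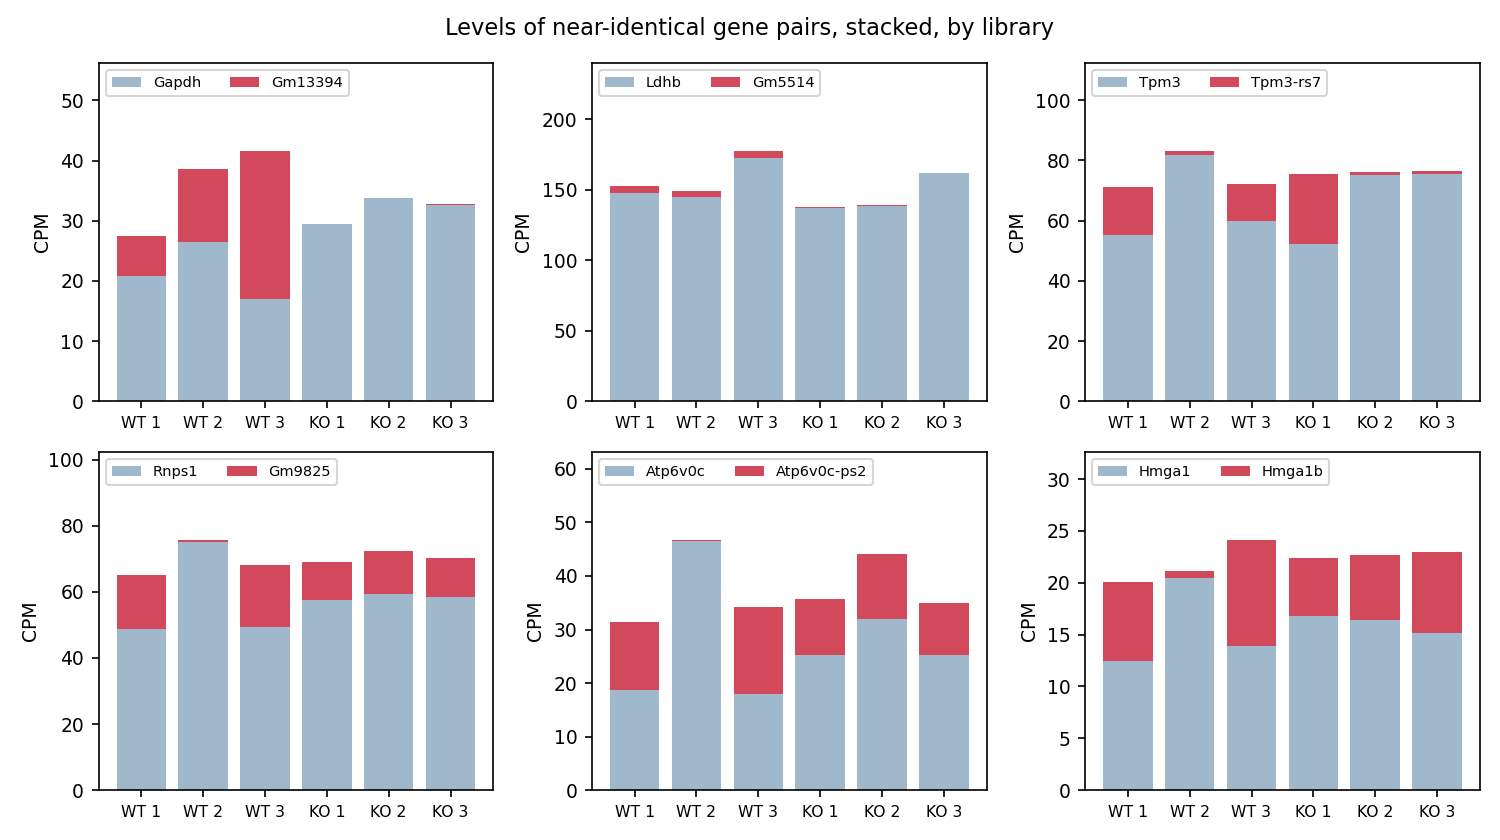
Stacked CPM (linear axis from 0) of 6 gene pairs in the 3 wild-type (WT) and 3 knockout (KO) libraries, blue for the parent gene and red for its near-identical copy. Where the red part is small the blue part tends to be large, except for Ldhb and Gm5514. There both were lower in each knockout library than in its batch partner. The summed bars overlap between the groups for the 6 pairs, as do the copies alone for Tpm3-rs7, Gm9825, Atp6v0c-ps2 and Hmga1b.

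The sex-linked genes account for 6 of the 104. Xist rose by 7.03 and 5 Y-linked genes fell, among them Eif2s3y, which stood at 0.0795, 103 and 106 CPM in wild type, against 0.363, 79.7 and 48.7 CPM in knockout. The Xist difference was -0.02, -3.07 and 9.95 in the 3 batches, so it rests on batch 3. Among the largest other changes, Myo7a, an unconventional myosin of sensory hair cells, rose by 1.85 (edgeR adjusted p = 4.74e-30), from 14.3, 0.886 and 23.3 CPM to 29.5, 22.7 and 35.6 CPM. Its lowest value was again wild-type batch 2. Slc15a2, a peptide transporter gene, fell by 1.53 (edgeR adjusted p = 3.14e-12), from 16.8, 12.6 and 12.97 CPM to 8.16, 9.93 and 1.34 CPM, with no overlap.

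Called genes near Plxnd1 were counted on chromosome 6. Without knockout batch 1, 6 of 257 tested genes within 20 Mb of Plxnd1 were called (2.33%), beside 8 of 590 on the rest of chromosome 6 (1.36%) and 0.611% of all genes. They were Cntn4, Gm15631, Pianp and Gm26770, which fell, and Gapdh and Ncapd2, a condensin subunit gene, which rose. Over 6 libraries Cntn4 was the 1 called of 252 (0.397%, beside 0.0359% of all genes). Both shares near Plxnd1 were above those of all genes, but they rest on 6 genes and on 1 gene. Of the 6, Cntn4 and Gm15631 are neighbours, as are Gapdh and Ncapd2. The labels do not give the strain backgrounds of the alleles, so the part of linked sequence was not tested.

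Endothelial cells of the same batch numbers were also sorted from knockout and wild-type embryos, and their values were set beside those of the motor neurons. One wild-type endothelial file was identical to a knockout file and was left out, which leaves 5 endothelial libraries. In endothelial cells Plxnd1 stood at 222 and 181 CPM in wild-type batches 1 and 3 and at 30.1, 16.1 and 19.5 CPM in knockout, a change of -3.04 (edgeR adjusted p = 5.52e-15). The change in motor neurons minus that in endothelial cells was 0.07 (SE 0.23, edgeR adjusted p = 1). Gm13394 and Gm5514 also fell in endothelial cells, by 7.46 and 2.58. Cntn4 was at 1.92 and 2.99 CPM in wild-type and at 0.745 to 1.33 CPM in knockout endothelial cells (change -1.26, edgeR adjusted p = 0.085).

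The endothelial fit called 0.989% of 18209 genes, 139 higher (0.763%) and 41 lower (0.225%). Of the 58 genes higher in motor neurons without knockout batch 1, 42 had the same sign in endothelial cells (72.4%, against 56.2% of all genes higher in motor neurons), and 5 were called there in that direction: Alcam, Eno1, Gapdh, Gm42047 and Tuba1c. Capn11 was called in the opposite direction. Of the 46 lower genes, 44 were tested and 36 had the same sign (81.8%, against 59.2%). Of these 12 were called, among them Plxnd1, Gm13394, Gm5514, Pianp and 5 genes of the Y chromosome. Npy and Sst, though lower in all 3 motor neuron batches, changed by -0.27 and -0.37 in endothelial cells (edgeR adjusted p = 0.805 and 0.719). Both cell types carry the same batch numbers, so these shares may not come from independent pools.

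A test of the difference between the cell types, over 11 libraries, called 5 of 19266 genes (0.026%): 2 with a more positive change in motor neurons (0.0104%), the liver genes Adh1 and Apob, and 3 with a more negative one (0.0156%), Col9a3, Prrt4 and Tenm3. Without knockout batch 1 edgeR called none (774 at an unadjusted p under 0.05, where 957 would be reached by chance alone). DESeq2, over the 11 libraries, called 6 genes with a more positive and 13 with a more negative change in motor neurons, and it was not run without knockout batch 1. Of the genes lower in motor neurons over 6 libraries, none differed from endothelial cells by this test: the edgeR adjusted p was 1 for Plxnd1, Cntn4, Gm13394 and Gm5514, with differences of 0.07, 0.14, -0.91 and -0.54.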

How the data were processed

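The values are raw counts per gene that the authors deposited, 1 file per library, with 55376 gene names each. Per the file headers, featureCounts 1.6.4 summed exons by gene name, without regard to strand, treating reads as unpaired and leaving out reads with several alignments. The labels call the libraries stranded. Per the submitters' processing notes, reads were trimmed with Trimmomatic 0.39 and aligned with STAR 2.5.3a to GRCm38 (mm10). Genes were described with GENCODE M21, which matched 54510 names.

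Counts were scaled by TMM and tested with edgeR 4.0.16 in R 4.3.3 (quasi-likelihood F-test, filterByExpr at a minimum count of 10, batch as a block, Benjamini-Hochberg adjusted p under 0.05 over all genes tested), over 6 libraries and without knockout batch 1. Batch numbers come from the labels. Same-batch libraries deviated together (r = 0.44, 0.493 and 0.444 over 14406 genes, against -0.406 to -0.0601 between batches). Log2 levels of single libraries used a prior count of 2. The scripts were tested on simulated data. Depth of 21526707 to 27035395 counts limits low genes most.

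Named were Plxnd1, Isl1, Mnx1, Chat, all genes called over 6 libraries, the 12 largest called changes in each direction without knockout batch 1 at a mean of 1 CPM or more, the 5 lowest p in each direction among calls of batches 2 and 3 that held in batch 1, up to 3 members and any called member of each of 29 lists, and the 10 highest genes particular to knockout batch 1. Other genes named, among them Npy, the DESeq2 calls, the Zic, Hox, H2 and collagen lists and the chromosome 2 run, were chosen after their values were seen. Results of some genes are not reported here. The comparison, its members and its lists were chosen with earlier results of these data known. Alternatives were DESeq2 1.42.0, RLE size factors, glmTreat at a fold of 1.5, no block, no filter on low counts, a stricter one at 5 CPM, the endothelial libraries in the same fit, and leaving out each library.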

Additional observations from a re-analysis of the deposited data

Results flagged for a closer look

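The effect of the knockout differed between motor neurons and endothelial cells for 5 of 19266 genes (0.026%) in edgeR's test of the interaction over 11 libraries. Col9a3, a chain of collagen IX, stood at 72.1, 54.0 and 103 CPM in wild-type motor neurons, against 58.0, 48.9 and 74.6 CPM in knockout ones, and at 11.1 and 15.2 CPM in wild-type, against 19.4, 39.5 and 30.5 CPM in knockout endothelial cells. It was lower in motor neurons and higher in endothelial cells in each batch with a partner, and the motor neuron change minus the endothelial change was -1.22 (edgeR adjusted p = 0.0438). Prrt4 stood at 8.70 to 9.85 CPM in wild-type, against 9.37 to 11.4 CPM in knockout motor neurons, and at 2.41 and 4.03 CPM in wild-type, against 10.3, 11.6 and 15.3 CPM in knockout endothelial cells, with a difference of -1.83 (edgeR adjusted p = 0.0445). Tenm3, a teneurin adhesion protein, had a difference of -0.94 (edgeR adjusted p = 0.0445), from changes of -0.17 in motor neurons and 0.77 in endothelial cells.

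The liver genes Adh1 and Apob had differences of 6.24 and 10.97 (edgeR adjusted p = 0.0438 and 0.0047). Both rest on knockout batch 1, where they stood at 18.2 and 170.5 CPM, against no more than 0.238 and 0.149 CPM in the other motor neuron libraries. Without that library no gene passed edgeR's interaction test (774 at an unadjusted p under 0.05; DESeq2 was not run there), and the edgeR adjusted p was 0.105 for Col9a3, 0.105 for Prrt4 and 0.12 for Tenm3, with differences of -1.22, -1.94 and -0.86.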

How the results depend on the processing

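Counts are given as higher and lower genes. Over 6 libraries, 2 and 4 became 15 and 17 in DESeq2, 6 and 4 with the endothelial libraries, 0 and 2 with a filter at 5 CPM, 433 and 98 with no filter, and 0 and 2 without the replicate block. Leaving out a library gave 4 to 146 and 5 to 58: 4 and 5 without either library of batch 2, 58 and 46 or 54 and 50 without one of batch 1, and 116 and 48 or 146 and 58 without one of batch 3. Without knockout batch 1, 58 and 46 became 7 and 6 in DESeq2, 0 and 3 with the endothelial libraries, 6 and 14 under glmTreat, and 0 and 0 without the replicate block. Without that block 252 genes had an unadjusted p under 0.05. Leaving out a further library gave 14 to 46 and 22 to 33 with the endothelial libraries in the fit (39 and 30 without knockout batch 3), and 54 and 45 from batches 2 and 3 alone. RLE size factors kept every count within 1.5 times. The interaction's 2 and 3 became 6 and 13 in DESeq2, 218 and 109 with no filter, 0 and 0 without the block, and 0 to 11 and 0 to 7 leaving out a library. Genes called within 20 Mb of Plxnd1 were 1 over 6 libraries, against 3 in DESeq2, 0 under glmTreat, 16 with no filter, 0 without the block and 1 to 6 leaving out a library. Without knockout batch 1 they were 6, against 1 in DESeq2, 0 with the endothelial libraries, 2 under glmTreat and 0 without the block. They were 6 from batches 2 and 3 alone, and 1 to 4 with the endothelial libraries added and a further library left out.

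Signs turned for Alb without a batch 1 library (-0.43 and -0.45, and up to 9.24 without another library). In the 5-library fit without the block they turned for Xist (-0.51), Kdm5d (0.032), Ddx3y (0.095), Uty (0.10), Col1a2 (-0.056) and Slc2a4rg-ps (-0.062). With the endothelial libraries added and a library left out, both at once, leaving out one of batch 3 turned Xist (-3.325 and -3.31) and Tmem181c-ps (0.085 and 0.095), and one of batch 2 turned Capn11 (-1.86 and -1.87), Atp6v0c-ps2 (-0.72), Gm9825 (-0.65) and Hspa8 (-0.061 and -0.065). The causes were not tested. Of 604 values of the 88 named genes called in that fit under the other settings, 275 kept direction and call, 322 kept direction alone, 6 turned and 1 (H2-Bl, DESeq2) had no adjusted p. The low residual degrees of freedom and the depth of genes near 1 CPM limit both fits.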

Other observations

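Further transcription factor and signalling genes were called without knockout batch 1, in both directions, and those named here were chosen after their values were seen. Among the transcription factors Lhx2, Evx2, Foxb1 and Tbx20 rose. Lhx2, a LIM homeodomain factor of dorsal interneurons, stood at 22.96, 17.3 and 39.2 CPM in wild type, against 12.52, 45.4 and 58.1 CPM in knockout (change 0.95, edgeR adjusted p = 5.58e-14). Evx2 and Foxb1 had changes of 0.42 each (edgeR adjusted p = 0.0455 and 0.0487) and Tbx20 of 1.16 (edgeR adjusted p = 0.00307). Evx2 and Foxb1 were higher in all 3 batches, whereas Lhx2 and Tbx20 were lower in batch 1. Mafa fell by 0.39 (edgeR adjusted p = 0.0469) and was slightly higher in batch 1 (0.05). The following genes fell and were lower in all 3 batches. Wt1, a zinc finger factor of dorsal interneurons and kidney, stood at 5.84, 7.55 and 10.7 CPM in wild type and at 4.36, 2.45 and 9.04 CPM in knockout and fell by 0.85 (edgeR adjusted p = 0.0108). Barhl2, a factor of dorsal commissural interneurons, stood at 22.3, 29.0 and 26.1 CPM in wild type and at 20.4, 16.4 and 23.7 CPM in knockout and fell by 0.47 (edgeR adjusted p = 0.0394). Prkcq, a protein kinase C gene, fell by 1.11 (edgeR adjusted p = 0.00224), from 5.999, 2.56 and 9.57 CPM to 2.75, 1.99 and 3.03 CPM. Rftn1, a lipid raft protein gene, fell by 0.54 (edgeR adjusted p = 0.0115), and DESeq2 also called it lower over 6 libraries (adjusted p = 0.041). Each knockout library lay below its batch partner for these 4 genes, and all 4 groups of values overlapped.

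Lamp5 and Aldh1a2 were among the genes that DESeq2 called over 6 libraries and edgeR in neither fit, and they were chosen here after their values were seen. Lamp5, a membrane protein of inhibitory neurons, stood at 436, 359.5 and 531.5 CPM in wild type and at 344, 254 and 465 CPM in knockout (change -0.35, DESeq2 adjusted p = 0.003). Aldh1a2, which makes retinoic acid in motor neurons, stood at 87.8, 159 and 46.3 CPM in wild type and at 130.2, 207 and 50.3 CPM in knockout (change 0.36, DESeq2 adjusted p = 0.0484). Each differed in the same direction in all 3 batches, and edgeR's adjusted p over 6 libraries was 0.336 for Lamp5 and 0.299 for Aldh1a2.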
